A study of Mus musculus with 15 samples.

Results

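The non-additivity of paraquat and titanium dioxide was measured in the striatum of 14-day-old mouse pups, for each of the 15569 genes of the deposited table. The measure is the interaction of the 2 agents on the log2 scale: the mixture mean, minus the paraquat mean, minus the TiO2 mean, plus the control mean. All 15569 genes were members by this rule, which used no measured value to choose them, and 15556 of them passed a filter on low counts and were tested. C57Bl/6J dams had been exposed to aerosols during gestation, and striatum of their pups was taken at postnatal day 14. There were 15 libraries: 4 from exposure to paraquat mixed with TiO2 nanoparticles, 3 from paraquat alone, 4 from TiO2 nanoparticles alone and 4 controls that the labels call untreated. Strain, tissue and age were the same in all groups. The labels give no dose, litter, dam, sex or batch, so it is not known whether the mixture held each agent at its single-exposure dose. Nor do they say that each library is a different pup, so the p-values rest on the spread among these libraries alone, part of which may be technical.

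Paraquat is a herbicide that takes up and passes on electrons in cells and so generates superoxide, and it has been studied in relation to Parkinson's disease. TiO2 nanoparticles are a poorly soluble particulate. The striatum is the input nucleus of the basal ganglia; it is made up mostly of medium spiny neurons and acquires its myelin in the first postnatal weeks. An interaction of 0 means that the fold change of the mixture is the product of the fold changes of the 2 single exposures. A negative interaction places the mixture below that product (called lower here) and a positive one above it (called higher).

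Values are normalised read counts, that is, reads scaled by each library's size factor. Depth was 8690925 to 14207513 reads in the 11 libraries where whole reads could be recovered with certainty. The highest depth was that of paraquat 3, and the next highest recovered total was 9804609 reads, in control 4. A count of 3 reads corresponds to 1.98 to 3.25 normalised counts. The tissue label was checked against its markers: all 18 genes of the medium spiny neuron list were present in every library, among them Ppp1r1b, a regulator of dopamine signalling, at 7955 to 12260 normalised counts. Libraries also differed in ways that moved with the groups. Mitochondrial transcripts held 19.9% ± 0.976 of the signal in the mixture, 17.8% ± 0.913 in paraquat, 18.9% ± 1.87 in TiO2 and 21.01% ± 0.917 in control (SD, n = 4, 3, 4 and 4). Each library's deviation from the mean was also correlated with transcript GC content across genes. That correlation averaged −0.100 ± 0.199 in the mixture, 0.208 ± 0.167 in paraquat, 0.142 ± 0.24 in TiO2 and −0.204 ± 0.208 in control (SD). Single libraries of the groups overlapped: they ran from −0.277 to 0.085, 0.018 to 0.334, −0.120 to 0.453 and −0.379 to 0.072, in the same order. Cortical glutamatergic markers were present in all groups: 12 of 13 listed genes were in the table, none was at 0 in any library, and they summed to 4356 to 6077 normalised counts in the mixture, 3400 to 7156 in paraquat, 3004 to 4334 in TiO2 and 2440 to 3779 in control. The X-inactivation RNA Xist was high in 2 mixture, 1 paraquat, 2 TiO2 and 2 control libraries (10600 to 24100 normalised counts) and low in the others of each group (0.983 to 76.3). The libraries of a group were not all repeats of 1 pup.

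Of the 15556 genes tested, 1832 (11.8%) had an interaction that passed an adjusted p of 0.05 in limma: 990 lower (6.36%) and 842 higher (5.41%). An unadjusted p under 0.05 was found for 4390 genes, and edgeR's quasi-likelihood test on the recovered reads called 1969, with 1059 lower and 910 higher. The interaction exceeded 1 in size on the log2 scale in 126 of the genes called lower and in 37 of those called higher. Its median over all genes tested was near 0 (−0.000325), and its median standard error was 0.179, against 0.122 to 0.132 for a difference of 2 groups. Leaving out 1 library moved the count of calls by over 1.5 times for 6 of the 15 libraries: 1196 genes were called without mixture 2, 1098 without mixture 4, 882 without paraquat 1, 1179 without paraquat 3, 1011 without TiO2 3 and 1203 without control 1. Of the 1832 calls, 687 (420 lower and 267 higher) were made whichever library was left out.

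**Figure D1:**
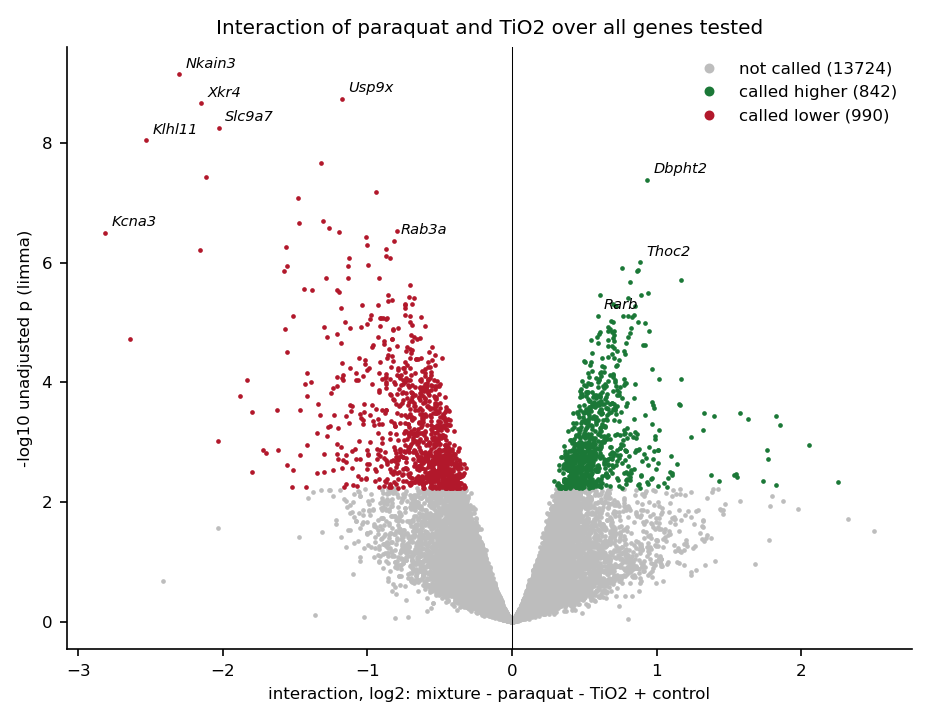
Interaction of paraquat and TiO2 for the 15556 genes tested: the x axis is the interaction on the log2 scale (mixture minus paraquat minus TiO2 plus control), the y axis −log10 of the unadjusted limma p, and each point is a gene, coloured by its call at an adjusted p of 0.05. The 990 genes called lower lie on the left, headed by Nkain3, Usp9x and Xkr4, and the 842 called higher on the right, headed by Dbpht2.

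The group levels behind these calls had a single form. In all 990 genes called lower the paraquat mean and the TiO2 mean were both above the control mean, and in all 842 genes called higher both were below it; such an arrangement, with both single-exposure effects opposite to the interaction, was present in 75.6% of all genes tested. The mixture mean lay between the control mean and the nearer single-exposure mean in 821 of the genes called lower and 656 of those called higher. It lay on the far side of the control mean in 118 and 171, between the 2 single-exposure means in 50 and 15, and beyond both of them in 1 gene called lower, Gm38394, and in none called higher. Gm38394 was singled out after its values were seen. For the genes called lower, the median log2 difference from control was 0.17 for the mixture, 0.42 for paraquat and 0.36 for TiO2. The medians of the genes called higher were −0.078 for the mixture, −0.34 for paraquat and −0.29 for TiO2. The mixture and control libraries overlapped in range in 775 of the genes called lower, 772 of those called higher and 14351 of the 15556 genes tested. These counts are a description, because the control mean and the single-exposure means enter the interaction itself and a control mean far from the rest would give the same form.

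**Figure D2:**
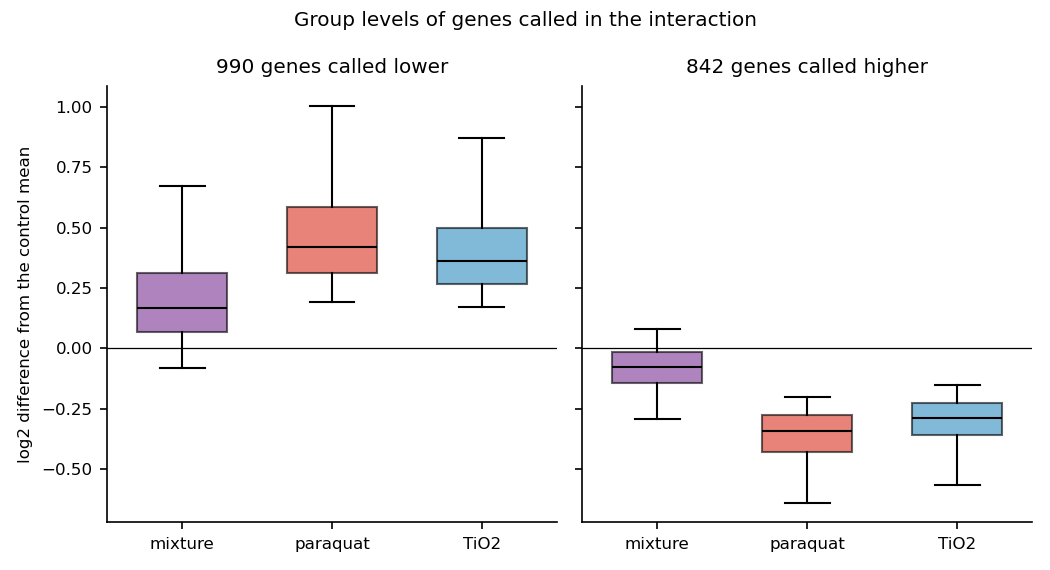
Log2 difference from the control mean (y axis) in the mixture, paraquat and TiO2 groups, for the 990 genes called lower (left) and the 842 called higher (right); boxes give the median and quartiles over genes and whiskers the 5th and 95th percentiles. The mixture median (0.17 and −0.078) is nearer to control than the paraquat (0.42 and −0.34) and TiO2 (0.36 and −0.29) medians in both sets.

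The contrasts that make up the interaction share libraries and are given side by side. Against control, 185 genes (1.19%) were called for the mixture, 174 higher (1.12%) and 11 lower (0.0707%). For paraquat there were 1617 (10.4%), 986 higher (6.34%) and 631 lower (4.06%). For TiO2 there were 996 (6.4%), 669 higher (4.3%) and 327 lower (2.1%). Set directly against paraquat alone, the mixture had 1 called gene, Dbpht2 (0.00643%), with 2235 genes at an unadjusted p under 0.05 and 1 call by edgeR. Against TiO2 alone the mixture had 0 called genes in limma, with 1768 at an unadjusted p under 0.05 and 0 calls by edgeR. The interaction is also the difference between 2 steps, the mixture minus the mean of the single exposures and the mean of the single exposures minus control. For the first step 3 genes were called, all higher (0.0193%), among them Dbpht2 and Psmd12, and edgeR called 6; for the second step 2312 were called (14.9%), 1338 higher (8.6%) and 974 lower (6.26%), and edgeR called 2390. These 2 steps were chosen after the other calls were seen.

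The 6 genes called lower with the smallest p were Nkain3, Usp9x, Xkr4, Slc9a7, Klhl11 and Atp5d. Nkain3, which encodes a membrane protein that interacts with the sodium pump, had 51.5, 66.2, 63.5 and 70.95 normalised counts in the mixture, 83.4, 62.9 and 98.8 in paraquat, 104, 106, 110.4 and 82.5 in TiO2 and 30.04, 21.7, 23.4 and 26.5 in control. Every mixture library lay below all 4 TiO2 libraries and above all control libraries, and 3 of 4 lay inside the paraquat range. A product of the single-exposure fold changes would put the mixture at 312; its geometric mean was 62.6, an interaction of −2.30 ± 0.24 (adjusted p = 1.1e-05). Adding the single-exposure differences on the linear scale gives another expectation, and of that the mixture reached 0.402. The mixture still differed from control by 1.28 on the log2 scale (adjusted p = 8.75e-05), beside 1.63 for paraquat (adjusted p = 1.03e-05) and 1.95 for TiO2 (adjusted p = 6.14e-08). Nkain3 lies at chr4:20118874-20778866 of mouse GRCm38 on the minus strand.

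Usp9x, an X-linked deubiquitinase needed in neural development, had 807, 1035, 929 and 958 normalised counts in the mixture, 1075, 1010 and 1142 in paraquat, 1217, 1263, 1208 and 1193 in TiO2 and 741, 566, 585 and 616 in control. No mixture library overlapped the TiO2 or the control range, and 1 of 4, mixture 2, lay inside the paraquat range. The additive expectation was 2101 and the mixture's geometric mean 929, which gave an interaction of −1.18 ± 0.13 (adjusted p = 1.1e-05) and 0.559 of the linear expectation. The gene lies at chrX:13071498-13173328. Xkr4, of the XK family of phospholipid scramblases, had 189, 279, 235 and 222 normalised counts in the mixture, 218, 199.9 and 313 in paraquat, 341, 293, 332 and 337 in TiO2 and 92.2, 57.8, 91.5 and 67.8 in control. Its mixture libraries lay above all control libraries, overlapped paraquat and lay below all TiO2 libraries; the interaction was −2.15 ± 0.22 (adjusted p = 1.1e-05), and the mixture reached 0.470 of the linear expectation. Xkr4 lies at chr1:3205901-3671498.

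Slc9a7, a sodium/proton exchanger of the Golgi, had 74.3, 106, 119.6 and 121 normalised counts in the mixture, 130, 119.7 and 126 in paraquat, 163, 129, 156 and 126 in TiO2 and 53.9, 44.4, 38.3 and 32.4 in control. All 4 mixture libraries lay below every TiO2 library and above every control library, and only mixture 4 reached into the paraquat range. The interaction was −2.03 ± 0.23 (adjusted p = 2.14e-05) at 0.465 of the linear expectation. Klhl11, a substrate adaptor of cullin ubiquitin ligases, had 117, 133, 108 and 112 normalised counts in the mixture, 162, 148 and 189 in paraquat, 184, 174, 173 and 184 in TiO2 and 78.7, 30.96, 37.2 and 36.4 in control. The mixture was below every paraquat and TiO2 library and above every control library, among which control 1 was the highest, and the interaction was −2.53 ± 0.28 (adjusted p = 2.74e-05) at 0.394 of the linear expectation. Atp5d, the delta subunit of mitochondrial ATP synthase, had 1011, 1059, 1125 and 861 normalised counts in the mixture, 1257, 1057 and 1509 in paraquat, 1376, 1571, 1621 and 1202 in TiO2 and 649.5, 783, 758 and 677 in control. All 4 mixture libraries were above control and below TiO2, overlapping paraquat, with an interaction of −1.32 ± 0.16 (adjusted p = 5.45e-05) at 0.507 of the linear expectation.

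**Figure D3:**
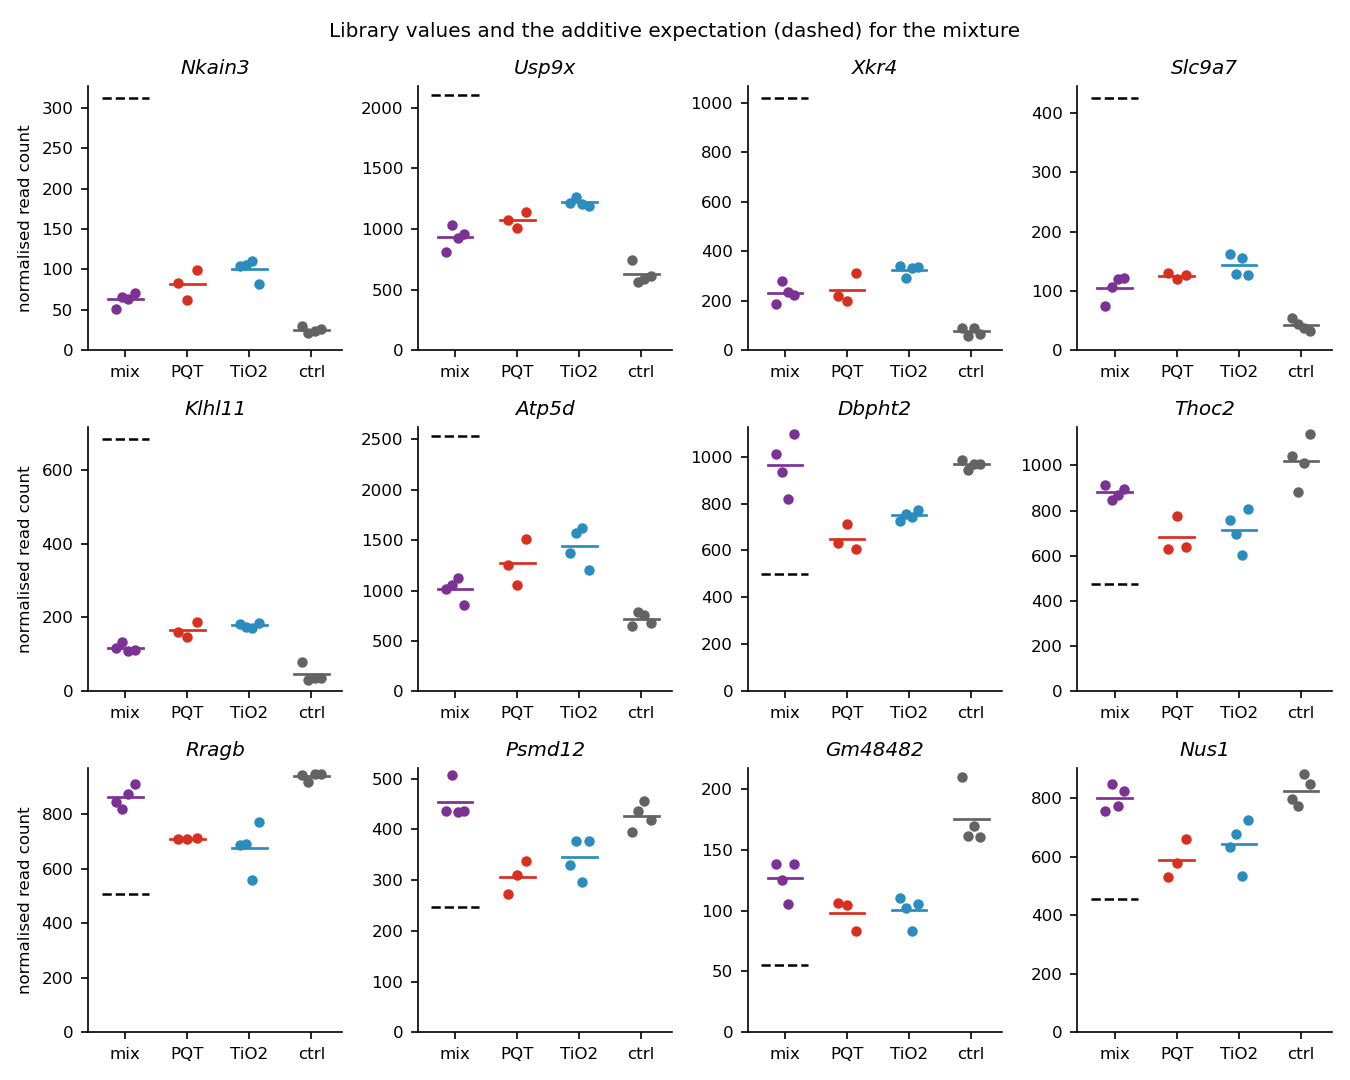
Normalised read counts (y axis, from 0) of the 6 genes called lower with the smallest p and of 6 of the 7 called higher with the smallest p; each point is a library of the mixture (mix), paraquat (PQT), TiO2 or control (ctrl) group, bars are group means and the dashed line is the mixture level at which the fold changes of the single exposures would multiply. In Nkain3 the dashed line is at 312 with the mixture at 62.6, and in Dbpht2 it is at 501 with the mixture at 960.1.

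The other 6 genes of smallest p in this direction were Lcor, a corepressor of nuclear receptors, Rnf208, a RING-finger ubiquitin ligase, Stxbp5l (tomosyn-2), an inhibitor of vesicle fusion, Gabrb2, a beta subunit of the GABA-A receptor, Exph5, an effector of Rab GTPases in vesicle transport, and the GENCODE entry Gm43843. Their interactions were −2.12 ± 0.27, −0.94 ± 0.12, −1.48 ± 0.20, −1.31 ± 0.18, −1.47 ± 0.21 and −1.27 ± 0.18, with adjusted p-values between 7.86e-05 and 0.000302. The mixture was called higher than control in all 6, by 0.45 (Rnf208) to 1.29 (Lcor) on the log2 scale. Gm43843 lies within Cttnbp2 on the same strand, so reads of the 2 cannot be told apart with certainty; Cttnbp2 itself had an interaction of −0.06 ± 0.12 (adjusted p = 0.793). Whether counting used strand is not given in the sources used here. Nkain3, Xkr4, Slc9a7, Atp5d, Rnf208 and Stxbp5l overlap a gene on the opposite strand, as do 44.0% of the genes called lower, 42.3% of those called higher and 43.5% of all genes tested.

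Among the genes called higher, single exposure to either agent went with a lower level and the mixture with a level nearer to control. Dbpht2, a long noncoding RNA, had 1012, 933, 821 and 1096 normalised counts in the mixture, 631, 711 and 604 in paraquat, 725, 756, 743 and 772 in TiO2 and 985, 944, 970.3 and 970.2 in control. The mixture was above every paraquat and TiO2 library and spread on both sides of the narrow control range. The additive expectation was 501 against a geometric mean of 960.1, an interaction of 0.94 ± 0.12 (adjusted p = 7.86e-05); on the linear scale the mixture was 2.24 times the expected level. Dbpht2 lies at chr12:74296668-74302008 on the plus strand and was the gene in which the mixture differed from paraquat alone, by 0.57 on the log2 scale (adjusted p = 0.0158).

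Thoc2, a subunit of the complex that couples transcription to mRNA export, had 913, 845, 869.8 and 895 normalised counts in the mixture, 630.2, 777 and 639 in paraquat, 756, 696, 603 and 806 in TiO2 and 1043, 882, 1012 and 1137 in control. The mixture lay above all libraries of both single exposures and overlapped control, with an interaction of 0.89 ± 0.14 (adjusted p = 0.000588) and 2.33 times the linear expectation. Rragb, a GTPase that signals amino acid supply to the growth kinase mTOR, had 845, 819, 873 and 911 normalised counts in the mixture, 708, 707 and 712 in paraquat, 685, 689, 557 and 771 in TiO2 and 943, 918, 946 and 947 in control. Its 4 mixture libraries were above every paraquat and TiO2 library and below every control library, with an interaction of 0.76 ± 0.12 (adjusted p = 0.000639) and 1.93 times the linear expectation. Thoc2 lies at chrX:41794991-41920674 and Rragb at chrX:153139981-153171943, both on the X chromosome, which holds 50 of the 842 genes called higher (5.94%), 34 of the 990 called lower (3.43%) and 570 of all genes tested (3.66%).

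Psmd12, a subunit of the regulatory particle of the proteasome, had 437, 508, 434 and 437 normalised counts in the mixture, 273, 310.5 and 337 in paraquat, 329, 376, 296 and 378 in TiO2 and 395, 436, 455 and 418 in control. The mixture exceeded both single exposures without overlap and overlapped control, with an interaction of 0.87 ± 0.14 (adjusted p = 0.000642) and 2.01 times the linear expectation.

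A further 7 genes of this direction were the GENCODE entry Gm48482, Nus1, part of the enzyme that makes the dolichol carrier for glycosylation, Actr3, a core subunit of the branched-actin nucleating complex, Gprasp1, which sorts G-protein-coupled receptors to lysosomes, the pyrophosphatase Ppa1, the deubiquitinase Usp37 and the microtubule-associated Eml5. Their interactions lay between 0.61 ± 0.10 for Gprasp1 and 1.17 ± 0.19 for Gm48482, with adjusted p-values of 0.0008 to 0.00137. None of the 7 was called between mixture and control; Gm48482 came closest, at −0.46 on the log2 scale (adjusted p = 0.0765). Thoc2, Usp37, Eml5 and Gprasp1 overlap genes on the opposite strand.

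The promoters of 3 of the leading genes in each direction are shown so that an annotated start region of each gene can be read. The shared pattern of each set is fixed by how its genes were chosen. They run from 250 bases before to 50 after the annotated start (RefSeq, GRCm38.p6, a gene's first entry where it has several). They are written 5′ to 3′ on the gene's strand and carry matches to the searched motifs in capitals. By the GENCODE coordinates given for genes here, the windows of Atp5d, Thoc2 and Dbpht2 lie inside the gene, downstream of its outermost start. Which start is used in these libraries was not tested. For the genes called lower the promoters are those of Slc9a7 (chrX:20291778-20292077, minus strand), Klhl11 (chr11:100472733-100473032, minus strand) and Atp5d (chr10:80142025-80142324, plus strand).
Slc9a7: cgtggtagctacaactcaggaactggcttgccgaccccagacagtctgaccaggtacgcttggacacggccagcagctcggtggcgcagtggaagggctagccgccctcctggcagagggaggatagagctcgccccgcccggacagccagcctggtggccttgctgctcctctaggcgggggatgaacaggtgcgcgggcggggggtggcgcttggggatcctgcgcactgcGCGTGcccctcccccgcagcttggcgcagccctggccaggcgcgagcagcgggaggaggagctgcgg
Klhl11: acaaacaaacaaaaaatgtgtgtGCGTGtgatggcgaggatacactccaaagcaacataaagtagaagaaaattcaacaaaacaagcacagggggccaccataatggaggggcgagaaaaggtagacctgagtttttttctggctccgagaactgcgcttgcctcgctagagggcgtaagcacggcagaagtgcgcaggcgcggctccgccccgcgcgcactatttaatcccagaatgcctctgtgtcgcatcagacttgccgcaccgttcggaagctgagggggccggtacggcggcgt
Atp5d: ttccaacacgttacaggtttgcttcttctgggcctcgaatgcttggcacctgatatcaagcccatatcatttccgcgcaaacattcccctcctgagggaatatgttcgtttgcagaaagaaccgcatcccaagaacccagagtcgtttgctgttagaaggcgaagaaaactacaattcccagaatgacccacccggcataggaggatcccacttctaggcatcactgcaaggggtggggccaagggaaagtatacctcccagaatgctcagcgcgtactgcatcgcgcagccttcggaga

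For the genes called higher they are those of Dbpht2 (chr12:74297224-74297523, plus strand), Thoc2 (chrX:41911852-41912151, minus strand) and Rragb (chrX:153139708-153140007, plus strand).
Dbpht2: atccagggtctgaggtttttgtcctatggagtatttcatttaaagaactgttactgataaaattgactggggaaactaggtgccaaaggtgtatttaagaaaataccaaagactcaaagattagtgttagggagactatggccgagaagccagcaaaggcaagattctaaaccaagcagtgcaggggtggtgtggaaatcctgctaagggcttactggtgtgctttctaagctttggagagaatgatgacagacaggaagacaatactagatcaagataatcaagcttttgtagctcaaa
Thoc2: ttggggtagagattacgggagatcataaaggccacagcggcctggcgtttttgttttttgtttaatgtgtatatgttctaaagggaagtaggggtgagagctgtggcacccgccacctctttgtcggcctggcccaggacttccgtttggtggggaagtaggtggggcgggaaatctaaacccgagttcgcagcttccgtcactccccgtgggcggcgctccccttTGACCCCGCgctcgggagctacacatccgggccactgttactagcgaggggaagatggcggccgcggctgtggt
Rragb: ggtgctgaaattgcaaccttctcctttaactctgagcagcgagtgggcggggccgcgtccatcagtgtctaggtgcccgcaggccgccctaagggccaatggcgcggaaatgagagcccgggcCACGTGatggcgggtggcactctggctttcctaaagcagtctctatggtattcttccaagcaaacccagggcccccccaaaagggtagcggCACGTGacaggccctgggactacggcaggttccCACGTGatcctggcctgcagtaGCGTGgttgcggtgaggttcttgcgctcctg

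The motifs searched on both strands were TGACNNNGC (antioxidant response element core), TGACGTCA (cyclic AMP response element), GCGTG (xenobiotic response element core), GCGGGGGCG (Egr site) and CACGTG (E-box); none of the 5 contains another. GCGTG occurs once each in the Slc9a7, Klhl11 and Rragb windows, TGACNNNGC once in that of Thoc2 and CACGTG at 3 positions in that of Rragb, while the Atp5d and Dbpht2 windows held none of the 5. Dbpht2 has 1 CpG in its 300 bases and the other 5 windows 14 to 24. The Dbpht2 window lies inside the gene by GENCODE, so its count may not be that of the promoter. Over the promoters that could be matched (728 of genes called lower, 626 of genes called higher and 10925 of all genes tested), TGACNNNGC was present in 12.9%, 16.8% and 14.3%, and GCGTG in 50.6%, 53.0% and 51.0%. The Egr site was present in 9.20% of the promoters of genes called lower, 6.23% of those called higher and 5.74% of all. TGACGTCA was in 2.75%, 3.83% and 3.27%, and CACGTG in 10.4%, 10.7% and 9.95%. The median number of CpGs per promoter was 22, 23 and 21. These matches are descriptions of letters in a fixed window.

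A list of 13 genes taken from earlier results on these data for their levels in the single exposures held 10 called lower and 0 called higher, with a median interaction of −2.12 beside −0.000325 for all genes tested. Its members were picked on these same libraries, so the count does not support the interaction. Of the 13, 10 were called higher than control in both single exposures, and Grm2, Slc17a6 and Nrn1 were not called in TiO2. Beside 7 genes already given, Kcna3, a voltage-gated potassium channel of the Shaker family, had 32.7, 59.7, 41.6 and 39.1 normalised counts in the mixture, 69.5, 47.7 and 63.9 in paraquat, 75.7, 71.2, 69.2 and 64.6 in TiO2 and 30.04, 10.3, 10.6 and 8.85 in control. It had the most negative interaction among the genes called, −2.81 ± 0.39 (adjusted p = 0.000302), with the mixture at 0.374 of the linear expectation; control 1, at 30.04, reached close to the lowest mixture library. Oprm1, the mu-opioid receptor, had 40.6, 73.8, 67.6 and 76.1 normalised counts in the mixture, 67.5, 54.8 and 88.9 in paraquat, 103, 88.5, 104 and 100.4 in TiO2 and 30.04, 21.7, 31.9 and 14.7 in control. Mixture libraries lay above all controls and below all TiO2 libraries, and the interaction was −2.16 ± 0.32 (adjusted p = 0.000436), or 0.446 of the linear expectation. Cyp26b1, an enzyme that breaks down retinoic acid, had 23.8, 24.9, 59.3 and 57.6 normalised counts in the mixture, 41.7, 57.8 and 87.6 in paraquat, 25.9, 51.9, 54.2 and 48.7 in TiO2 and 16.6, 9.29, 8.51 and 7.86 in control; the mixture split into a lower and a higher pair of libraries, and the interaction was −2.64 ± 0.48 (adjusted p = 0.0025), or 0.427 of the linear expectation.

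The 3 members of that list that did not pass were Grm2, a presynaptic glutamate receptor, Slc17a6, a vesicular glutamate transporter, and Nrn1, a neurite growth factor. Slc17a6 had 31.7, 72.7, 43.7 and 61.7 normalised counts in the mixture, 57.6, 42.6 and 65.8 in paraquat, 7.26, 29.5, 19.1 and 18.9 in TiO2 and 2.07, 19.6, 10.6 and 19.7 in control. Here the mixture range held all paraquat libraries and lay above all TiO2 and control libraries, which overlapped each other, and the interaction was −0.80 ± 0.82 (adjusted p = 0.563). For Grm2 and Nrn1 the values were −1.21 ± 0.49 (adjusted p = 0.102) and −0.14 ± 0.68 (adjusted p = 0.918). Slc17a6 and Nrn1 were also on the list of cortical glutamatergic markers, whose summed level was highest in paraquat 2 and mixture 4. In paraquat 2 Slc17a6 was at 42.6, its lowest value in paraquat, and in mixture 4 at 61.7, so it did not follow that sum in every library. With the mean log2 deviation of the list as a covariate (the cortical score), the interaction of Nrn1 was 0.099. Nrn1 is part of that score, so this fit adjusted it in part for itself and its change cannot be interpreted.

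Genes of the oligodendrocyte lineage, the cells that make myelin, had the largest share of members called lower among the lists of cell types and pathways. In bulk tissue, fewer cells of a type and less RNA per cell cannot be told apart. Of 18 myelin and oligodendrocyte genes, 10 were called lower and 0 higher, with a median interaction of −1.05. Gal3st1, which makes the myelin lipid sulfatide, had 300, 324, 353 and 246 normalised counts in the mixture, 487, 385 and 555 in paraquat, 354, 437, 462 and 300.3 in TiO2 and 284, 302, 209.6 and 258 in control, and its interaction was −1.18 ± 0.22 (adjusted p = 0.00272). The paraquat libraries stood above every mixture and control library, and the mixture overlapped TiO2 and control. Members other than the one of smallest p are named here and for the lists that follow after their values were seen. Mbp, myelin basic protein, averaged 27790 ± 6315 in the mixture, 39110 ± 1288 in paraquat, 29350 ± 7121 in TiO2 and 20320 ± 4021 in control (SD), an interaction of −1.05 ± 0.30 (adjusted p = 0.0411). Myrf, the transcription factor that switches on myelin genes, averaged 372 ± 73.8 in the mixture, 529.6 ± 96.2 in paraquat, 440.1 ± 95.8 in TiO2 and 285 ± 33.7 in control, an interaction of −1.12 ± 0.22 (adjusted p = 0.00467). Fa2h, the fatty acid hydroxylase of myelin lipid synthesis, had −1.42 ± 0.34 (adjusted p = 0.0208). Mog and Mag did not pass, at −0.73 ± 0.36 (adjusted p = 0.209) and −1.32 ± 0.40 (adjusted p = 0.0519). The summed signal of the list was 50150 to 86580 in the mixture, 93590 to 107600 in paraquat, 58170 to 91590 in TiO2 and 42270 to 63120 in control, so that paraquat stood apart from the other groups.

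The myelin calls depended on single libraries. Without paraquat 3, 3 of the 18 were called lower, and 3 were called whichever library was left out. With the GC trend removed from each library 5 were called lower, and with the mitochondrial share as a covariate 0. Of 12 markers of oligodendrocyte precursors, 6 were called lower and 0 higher, with a median of −0.49; 4 were called whichever library was left out, 6 with the GC trend removed and 0 with the mitochondrial share as a covariate. Sox10, a transcription factor of the lineage, had 649.6, 584, 767 and 492 normalised counts in the mixture, 956, 699 and 952 in paraquat, 605, 696, 893 and 607 in TiO2 and 460, 507, 488 and 494 in control. Its mixture libraries overlapped both single exposures, and 3 of 4 were above all controls; the interaction was −0.99 ± 0.20 (adjusted p = 0.00472). Olig1, a transcription factor of the lineage, averaged 1683 ± 168 in the mixture, 2250 ± 192 in paraquat, 1980 ± 409 in TiO2 and 1570 ± 59.5 in control, an interaction of −0.73 ± 0.15 (adjusted p = 0.00565), and Gpr17, a receptor of committed precursors, had −0.59 ± 0.13 (adjusted p = 0.00617). Pdgfra, the growth factor receptor of precursors, averaged 864 ± 18.9 in the mixture, 844 ± 145 in paraquat, 885 ± 39.3 in TiO2 and 917 ± 14.7 in control and did not pass (0.10 ± 0.12, adjusted p = 0.637).

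**Figure D4:**
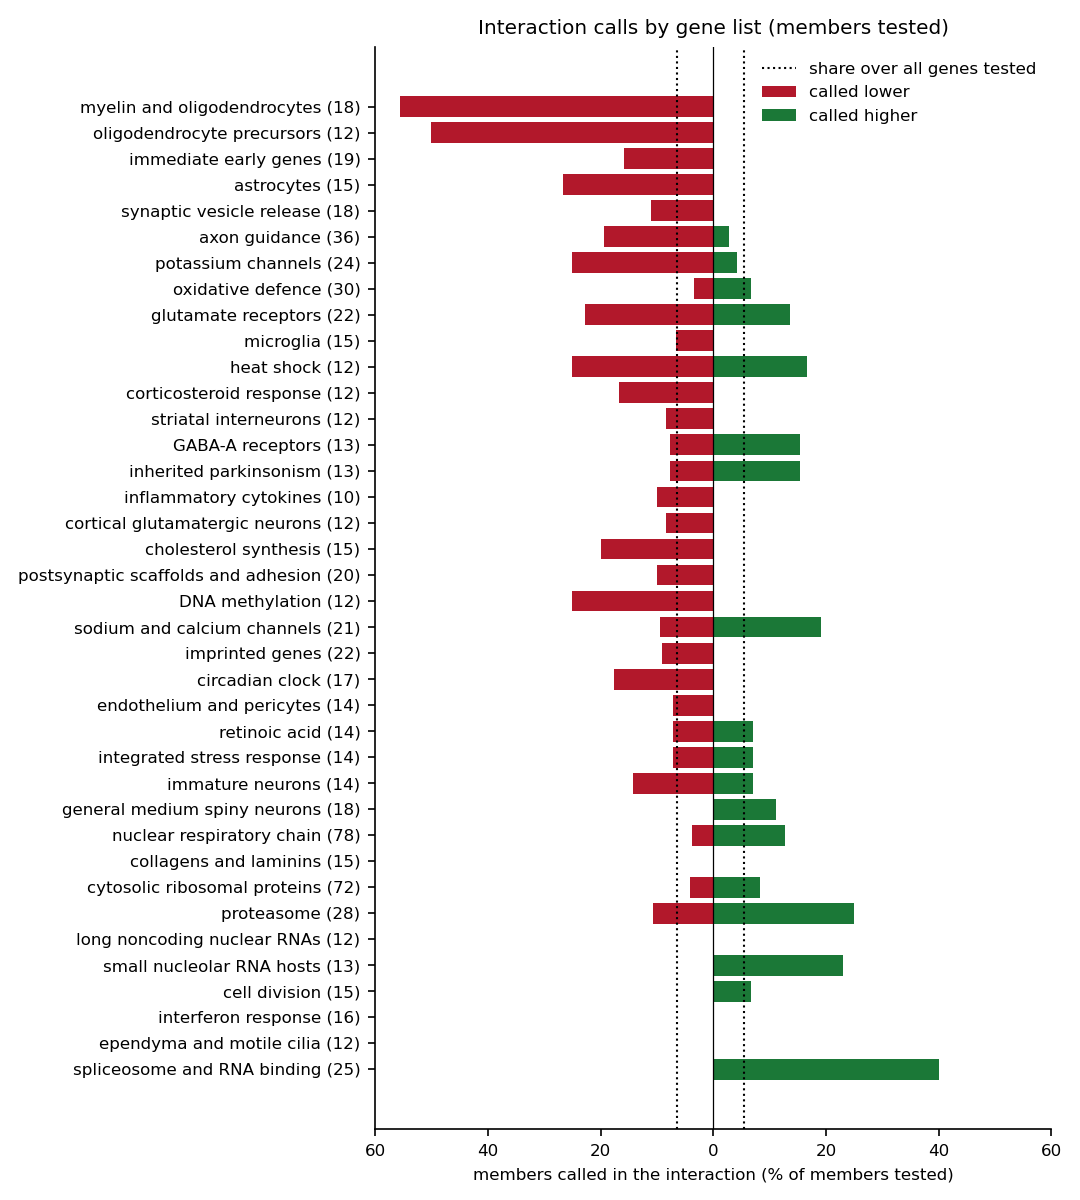
Share of the tested members of each gene list with at least 10 members (number in brackets) that were called lower (red, to the left) or higher (green, to the right) in the interaction, ordered by median interaction; the dotted lines are the shares over all genes tested, 6.36% lower and 5.41% higher. Myelin genes (10 of 18) and oligodendrocyte precursor genes (6 of 12) lie at the lower end and spliceosome genes (10 of 25) at the higher end.

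Astrocyte markers had 4 of 15 called lower and 0 higher, with a median of −0.31. Sox9, a transcription factor of astrocytes, had 532, 476, 509 and 510 normalised counts in the mixture, 709.6, 641 and 725 in paraquat, 624, 505, 641 and 598 in TiO2 and 413, 365, 515 and 494 in control. The paraquat libraries were above every mixture and control library, and the mixture overlapped TiO2 and control, with an interaction of −0.86 ± 0.14 (adjusted p = 0.00116). Gja1, the gap junction protein connexin-43, had −0.44 ± 0.11 (adjusted p = 0.013), and Aldoc, a glycolytic aldolase, −0.69 ± 0.18 (adjusted p = 0.018). With the GC trend removed 4 were called lower, and with the mitochondrial share as a covariate 0. Of 15 genes of cholesterol synthesis and its control 3 were called lower, among them Dhcr7, an enzyme late in the pathway, and Insig1, which restrains it, at −0.73 ± 0.16 (adjusted p = 0.00758) and −0.87 ± 0.21 (adjusted p = 0.00963). For microglia, 1 of 15 markers was called lower (6.67%, against 6.36% of all genes tested), Tmem119, at −0.58 ± 0.18 (adjusted p = 0.0371). Its call was made in 7 of 15 fits that left out 1 library, and not with the GC trend removed or the mitochondrial share as a covariate. For endothelium and pericytes 1 of 14 was called, Cdh5, a junction protein of vessels, at −0.77 ± 0.17 (adjusted p = 0.00608); every paraquat and TiO2 library was above every mixture library, and mixture and control overlapped.

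Neuronal lists had calls in both directions. Of 18 general medium spiny neuron genes, 2 were called higher and 0 lower, a share of 11.1% beside 11.8% of all genes tested. Rarb, a retinoic acid receptor of the striatum, had 3572, 3537, 3295 and 3540 normalised counts in the mixture, 3028, 3162 and 2840 in paraquat, 3493, 3242, 2924 and 3379 in TiO2 and 4361, 3924, 4200 and 4454 in control. Every mixture library was above every paraquat library and below every control library, and the mixture range overlapped TiO2; the interaction was 0.59 ± 0.10 (adjusted p = 0.00173). The other was Arpp21, an RNA-binding phosphoprotein, at 0.34 ± 0.10 (adjusted p = 0.0259). Among direct-pathway genes Tac1, the substance P precursor, had 0.66 ± 0.13 (adjusted p = 0.00377) and Isl1, a transcription factor, 0.49 ± 0.16 (adjusted p = 0.0431), while Chrm4, a muscarinic receptor, had −0.51 ± 0.16 (adjusted p = 0.0458). Among indirect-pathway genes Penk, the enkephalin precursor, averaged 16620 ± 2004 in the mixture, 14440 ± 1472 in paraquat, 15030 ± 1163 in TiO2 and 17920 ± 2038 in control, an interaction of 0.45 ± 0.14 (adjusted p = 0.0336), and Adora2a, the adenosine receptor of these cells, had −0.45 ± 0.12 (adjusted p = 0.0232). Of these calls Rarb and Tac1 were made whichever library was left out, Adora2a in 13 of the 15 such fits, Arpp21 in 10, Penk in 8, Chrm4 in 5 and Isl1 in 4. Adora2a, Chrm4 and Isl1 were not called with the GC trend removed, and 0 genes of these 3 lists were called with the mitochondrial share as a covariate. The dopamine receptors Drd1 and Drd2 did not pass, at 0.16 ± 0.10 (adjusted p = 0.33) and −0.30 ± 0.13 (adjusted p = 0.127).

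Of 24 potassium channel genes, 6 were called lower and 1 higher. Kcna1 and Kcna2, Shaker channels of axons, had −0.82 ± 0.20 (adjusted p = 0.0127) and −0.51 ± 0.13 (adjusted p = 0.0133), and the auxiliary subunit Kcnab1 was the gene called higher, at 0.45 ± 0.13 (adjusted p = 0.0247). Kcnj10, an inward rectifier of glia, averaged 2281 ± 296 in the mixture, 2689 ± 489 in paraquat, 2759 ± 163 in TiO2 and 2194 ± 165 in control, an interaction of −0.56 ± 0.14 (adjusted p = 0.0144). Of 21 sodium and calcium channel genes, 4 were called higher and 2 lower: Cacna2d3, an auxiliary calcium channel subunit, and Scn2a, a sodium channel, at 0.62 ± 0.13 (adjusted p = 0.00382) and 0.39 ± 0.11 (adjusted p = 0.0236), against Cacna2d2, another auxiliary calcium channel subunit, at −0.62 ± 0.14 (adjusted p = 0.00631). Of 22 glutamate receptor genes, 5 were called lower and 3 higher. The NMDA receptor subunit Grin1 had −0.53 ± 0.13 (adjusted p = 0.0101) and the metabotropic receptor Grm3 −0.45 ± 0.12 (adjusted p = 0.0148), while the AMPA receptor subunits Gria3 and Gria4 had 0.61 ± 0.14 (adjusted p = 0.00748) and 0.53 ± 0.13 (adjusted p = 0.00982). Of 13 GABA-A receptor genes, Gabra2 and Gabra4 were called higher, at 0.42 ± 0.13 (adjusted p = 0.0381) and 0.43 ± 0.14 (adjusted p = 0.0385), and Gabrb2 lower. Counts moved with single libraries: 2 glutamate receptor genes were called lower without mixture 2, mixture 4, paraquat 1, TiO2 3 or control 1, and 0 GABA-A receptor genes were called higher without mixture 2, mixture 4, paraquat 1, paraquat 3, TiO2 3 or control 4. Of the sodium and calcium channel genes, 2 were called higher without mixture 4, paraquat 1, TiO2 2 or control 4. In the synaptic vesicle list 2 of 18 were called lower and 0 higher, a share of 11.1% beside 11.8% of all genes tested. They were Rab3a, a GTPase of vesicle release, at −0.81 ± 0.12 (adjusted p = 0.000367), and Sv2a, a vesicle glycoprotein, at −0.32 ± 0.10 (adjusted p = 0.032). The call of Sv2a was made in 7 of the 15 fits that left out 1 library. Rab3a mixture libraries ran between 2433 and 2765, above every control library. With the GC trend removed, 0 GABA-A receptor genes were called higher and 3 lower. In that fit 1 glutamate receptor gene was called higher and 2 lower, and Gria3 was not called. It called 1 potassium channel gene higher and 4 lower, and 2 sodium and calcium channel genes in each direction. With the mitochondrial share as a covariate, Kcna3 of the potassium channels and Gabrb2 of the GABA-A receptors kept their call. In that fit 0 sodium, calcium or glutamate receptor genes were called.

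Guidance genes that steer growing axons had 7 of 36 called lower and 1 higher, and 4 lower without mixture 2, paraquat 1, TiO2 3, control 1 or control 4. Sema4d, a semaphorin, had −0.70 ± 0.15 (adjusted p = 0.00692), and Unc5d and Unc5a, netrin receptors, −0.72 ± 0.19 (adjusted p = 0.0169) and −0.68 ± 0.17 (adjusted p = 0.0145); the ephrin receptor Epha7 was called higher, at 0.54 ± 0.14 (adjusted p = 0.0205). The share of guidance genes called was 22.2%, beside 11.8% of all genes tested. In the list of postsynaptic scaffold and adhesion genes, 2 of 20 were called lower and 0 higher, a share under that of all genes tested. They were Nrxn2, at −0.58 ± 0.13 (adjusted p = 0.007), and Nlgn2, and both calls were made whichever library was left out. With the GC trend removed, 4 guidance genes were called lower and 0 higher, and 0 postsynaptic genes were called. With the mitochondrial share as a covariate, 0 genes of either list were called.

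RNA-processing genes had the largest share of members called higher. Of 25 spliceosome and RNA-binding genes, 10 were called higher and 0 lower, with a median of 0.37. Srsf7, a splicing factor of the SR family, had 1439, 1484, 1333 and 1556 normalised counts in the mixture, 1152, 1253 and 1090 in paraquat, 1329, 1169, 1011 and 1314 in TiO2 and 1608, 1356, 1625 and 1702 in control. Its mixture libraries were above all paraquat and TiO2 libraries and overlapped control, and the interaction was 0.70 ± 0.13 (adjusted p = 0.00229). Hnrnpa2b1 and Hnrnpu, which bind nascent transcripts, had 0.70 ± 0.15 (adjusted p = 0.00679) and 0.54 ± 0.11 (adjusted p = 0.00414), and Luc7l3, a splicing factor, 0.69 ± 0.13 (adjusted p = 0.0029). There were 6 calls without paraquat 1, 4 with the GC trend removed and 0 with the mitochondrial share as a covariate; the median transcript GC content of the list is 42.8%, against 49.2% over all genes tested. Of 13 small nucleolar RNA host genes 3 were called higher, and 0 without paraquat 3 or with the GC trend removed. Snhg6 had the smallest p, at 0.85 ± 0.22 (adjusted p = 0.0178).

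Of 28 proteasome genes, 7 were called higher and 3 lower; without mixture 4 or paraquat 1, 3 were called higher. After Psmd12, the core subunit Psma3 averaged 350 ± 44.2 in the mixture, 277 ± 30.96 in paraquat, 292 ± 36.7 in TiO2 and 364 ± 28.9 in control, an interaction of 0.66 ± 0.16 (adjusted p = 0.0105), while Psmb4, another core subunit, had −0.79 ± 0.14 (adjusted p = 0.00203). The heat shock list had 3 called lower and 2 higher of 12. Bag3, a cochaperone of selective autophagy, and Cryab, a small heat shock protein that is also abundant in oligodendrocytes, had −1.55 ± 0.30 (adjusted p = 0.00327) and −1.17 ± 0.23 (adjusted p = 0.00543); the cochaperone Dnaja1 had 0.80 ± 0.14 (adjusted p = 0.00173) and the constitutive chaperone Hspa8 0.45 ± 0.13 (adjusted p = 0.0247). Of 13 genes of inherited parkinsonism, 2 were called higher, among them Vps35, a subunit of the retromer sorting complex, and 1 lower, Pink1, a kinase of mitochondrial quality control. Vps35 averaged 1395 ± 95.03 in the mixture, 1105 ± 72.9 in paraquat, 1080 ± 135 in TiO2 and 1387 ± 135 in control, an interaction of 0.70 ± 0.13 (adjusted p = 0.00242), and Pink1 had −0.45 ± 0.14 (adjusted p = 0.0434). Pink1 was called in 5 of the 15 fits that left out 1 library. Lrrk2 and Park7 did not pass, at −0.22 ± 0.19 (adjusted p = 0.491) and 0.25 ± 0.15 (adjusted p = 0.303). Maoa and Maob, the enzymes that oxidise dopamine, were called higher, at 0.57 ± 0.16 (adjusted p = 0.0241) and 0.69 ± 0.20 (adjusted p = 0.0268). Neither was called without paraquat 1, TiO2 2 or TiO2 3, or with the GC trend removed. Th, which makes dopamine, did not pass (0.22 ± 0.21, adjusted p = 0.529). With the GC trend removed, 4 proteasome genes were called higher and 3 lower, and 1 heat shock gene higher and 2 lower. In that fit 2 parkinsonism genes were called higher and 0 lower. With the mitochondrial share as a covariate, 0 genes of these lists were called. The shares called were 35.7% (proteasome), 41.7% (heat shock), 23.1% (parkinsonism) and 22.2% (dopamine, 9 genes), beside 11.8% of all genes tested.

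Energy metabolism genes had calls in both directions. Of 78 nuclear genes of the respiratory chain, 10 were called higher and 3 lower, with a median of 0.14. That share was 16.7%, beside 11.8% of all genes tested. Without mixture 2, TiO2 3 or control 1, 3 were called higher. With the GC trend removed 6 were called higher and 2 lower. With the mitochondrial share as a covariate 0 were called higher and 1 lower, Atp5d. Ndufs4, of complex I, averaged 524 ± 33.5 in the mixture, 428 ± 31.4 in paraquat, 479.6 ± 74.3 in TiO2 and 604 ± 55.7 in control, an interaction of 0.64 ± 0.15 (adjusted p = 0.00871). The complex II subunits split: Sdha and Sdhb had 0.52 ± 0.12 (adjusted p = 0.00999) and 0.63 ± 0.14 (adjusted p = 0.00618), and Sdhc −0.56 ± 0.11 (adjusted p = 0.00393). Of the 7 mitochondrially encoded mRNAs tested, mt-Co1 and mt-Nd1 were called higher; mt-Co1 had 288600, 331700, 314000 and 294900 normalised counts in the mixture, 245000, 284100 and 273400 in paraquat, 296300, 277700, 227800 and 296700 in TiO2 and 335100, 334300, 303700 and 344500 in control, an interaction of 0.47 ± 0.12 (adjusted p = 0.0179). Its mixture libraries were above all 3 paraquat libraries and overlapped TiO2 and control. With the GC trend removed 0 of the 7 were called higher and 1 lower, and without paraquat 1 0 were called higher. Cytosolic ribosomal protein genes, many of which have near-identical pseudogene copies that make their counts uncertain, had 6 of 72 called higher and 3 lower. That share was 12.5%, beside 11.8% of all genes tested. Rpl5 was at 0.87 ± 0.16 (adjusted p = 0.00184) and Rpsa at −0.74 ± 0.21 (adjusted p = 0.0241). Without paraquat 3 or TiO2 3, 3 of the 72 were called higher and 0 lower.

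Of 30 oxidative defence genes, 2 were called higher and 1 lower, a share near that of all genes tested: Gclc, which catalyses the first step of glutathione synthesis, at 0.47 ± 0.11 (adjusted p = 0.011), Gsr, glutathione reductase, at 0.37 ± 0.12 (adjusted p = 0.0453), and the glutathione transferase Gstm1 at −0.79 ± 0.24 (adjusted p = 0.0362). The call of Gclc was made whichever library was left out, that of Gstm1 in 6 of the 15 fits and that of Gsr in 4. For Gclc the values were 714, 733, 625 and 700.2 normalised counts in the mixture, 602, 635 and 648 in paraquat, 580, 595, 532 and 650.4 in TiO2 and 764, 708, 750.1 and 727 in control, with the mixture overlapping paraquat, TiO2 and control. Of 16 interferon response genes 0 were called in limma and 0 in edgeR, with 1 at an unadjusted p under 0.05. Of 12 ependymal genes 0 were called in limma and 1 in edgeR, with 2 at an unadjusted p under 0.05; Dynlrb2 was at 1.39 ± 0.46 (adjusted p = 0.0503). Of 14 integrated stress response genes, the chaperone Hspa5 was called higher and the transcription factor Ddit3 lower, at 0.57 ± 0.17 (adjusted p = 0.0328) and −0.57 ± 0.19 (adjusted p = 0.0487). These calls were made in 7 and 5 of the 15 fits that left out 1 library. Of 10 inflammatory cytokine genes Tgfb1 was called lower, at −1.08 ± 0.23 (adjusted p = 0.00523). Of 15 collagens and laminins 0 were called in limma and 1 in edgeR (4 at an unadjusted p under 0.05), and of 12 nuclear noncoding RNAs 0 in either (3 at an unadjusted p under 0.05). Of 5 choroid plexus and 3 blood genes 0 were called in limma or edgeR, and 0 had an unadjusted p under 0.05. In these 4 lists Col4a1, Prlr, Alas2 and Meg3 had the smallest p, at 0.39 ± 0.13 (adjusted p = 0.0579), −1.15 ± 0.57 (adjusted p = 0.191), −0.86 ± 0.45 (adjusted p = 0.215) and 0.28 ± 0.10 (adjusted p = 0.0732).

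The direction of the interaction followed transcript GC content. The median GC content was 55.3% in the genes called lower, 43.4% in those called higher and 49.2% in all genes tested. Genes were ordered by GC content and split into 5 bins of equal size. In the bin of lowest GC content, 1.93% were called lower and 13.8% higher, and in the bin of highest GC content 16.2% were called lower and 0.289% higher. After the trend of each library with GC content had been removed, the shares were 6.65% and 3.47% in the lowest bin and 3.51% and 2.38% in the highest. That fit called 1145 genes, 690 lower and 455 higher, and 779 of the 1832 calls (449 lower and 330 higher) were kept. The called genes were also more abundant: their median level was 349.9 normalised counts in those called lower and 431.6 in those called higher, against 161.3 over all genes tested, and 94.4% and 88.7% of them were protein coding, against 85.2%.

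**Figure D5:**
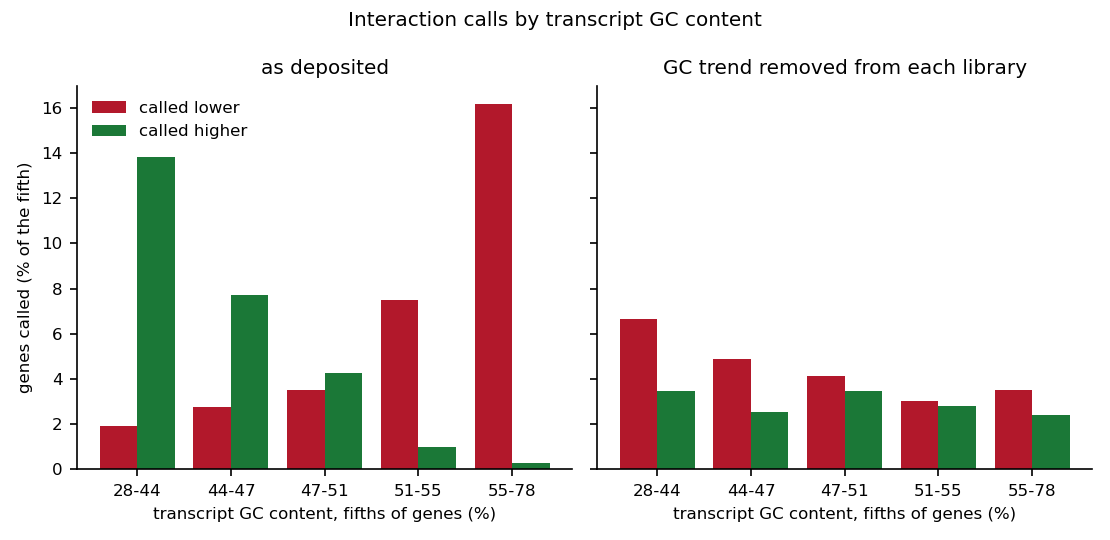
Share of genes called lower (red) and higher (green) in the interaction, in % of each of 5 equal bins of the tested genes ordered by transcript GC content (x axis, range in %), with the values as deposited (left) and after each library's GC trend was removed (right). As deposited, the lower calls run up to 16.2% in the GC-richest bin and the higher calls to 13.8% in the GC-poorest bin; after removal all shares lie between 2.38% and 6.65%.

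The mitochondrial share of the signal had an interaction of its own, 4.20 percentage points. With this share as a covariate, 32 genes were called, 30 lower and 2 higher, and 31 of them were among the 1832. The interaction kept its direction in 1831 of the 1832 genes; its median size among them was 0.409, against 0.574 without the covariate, and the median standard error over all genes was 0.24 against 0.179. The mitochondrial share differs between the groups, so its part and that of the exposures cannot be told apart by this fit. With the level of Xist as a covariate 1957 genes were called, of which 1817 were among the 1832.

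The 30 alternatives run are 15 other settings and the 15 fits that leave out 1 library. In every alternative that tested them, 26 genes kept their call, 24 lower and 2 higher. Beside the 12 genes of smallest p called lower, Kcna3 and Dbpht2, they included Slc24a2, a sodium/calcium/potassium exchanger of neurons (−0.79 ± 0.11, adjusted p = 0.000302), Kctd16, an auxiliary subunit of GABA-B receptors (−1.19 ± 0.17, adjusted p = 0.000302), Chga, chromogranin A of dense-core vesicles (−1.13 ± 0.17, adjusted p = 0.000606), Gprin3, a neurite outgrowth regulator (−1.30 ± 0.22, adjusted p = 0.00203), Pcdh9, a protocadherin (−0.55 ± 0.11, adjusted p = 0.00294), Chst12, a chondroitin sulfotransferase (−0.92 ± 0.15, adjusted p = 0.00078), Zc3h11a, Zkscan16, Gm6493 and BC005561, and in the other direction Igsf3, an immunoglobulin-domain membrane protein (0.74 ± 0.17, adjusted p = 0.00731). Chga averaged 778 ± 67.7 in the mixture, 811 ± 235 in paraquat, 864 ± 81.1 in TiO2 and 400.5 ± 28.5 in control, and Slc24a2 3110 ± 252 in the mixture, 3542 ± 257 in paraquat, 3578 ± 165 in TiO2 and 2359 ± 201 in control: in both the mixture was near the single exposures and well above control. Igsf3 averaged 204 ± 34.4 in the mixture, 161 ± 6.82 in paraquat, 166 ± 19.2 in TiO2 and 222 ± 20.7 in control, with the mixture near control. These genes were named after their calls were seen. Of the 15 other settings, Kcna3 kept its call in 14. The setting limited to genes with a mean of at least 50 normalised counts did not test it.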

How the data were processed

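Striatal RNA was isolated with the NucleoSpin RNA II kit, made into libraries with the Lexogen total RNA SENSE kit and sequenced on a NextSeq500, per the labels' protocols. The authors deposited 1 signal value per gene and library, read counts divided by a size factor; the build mm10 and the tools DESeq2 2.1.8.3 and Bowtie2 2.3.2.2 are named per the submitters' processing notes. Counter, annotation and strand setting were not given in the sources used here. The values step in whole reads: reads were recovered in all 15 libraries, with depth certain in 11, and 3 reads are the floor quoted. That floor covers counting error only.

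Interactions and the contrasts behind them were fitted to log2(signal + 1) in all 15 libraries with limma 3.58.1 (R 4.3.3; trend and robust options), with 1 mean per group. Fold changes are on this scale, which understates those of low genes. Values after ± are standard errors for interactions and SDs for group means. Benjamini-Hochberg adjustment ran over the 15556 genes kept by edgeR's filterByExpr (13 dropped), with a threshold of 0.05. edgeR 4.0.16 and DESeq2 1.42.0 were run on recovered reads as alternatives, beside other pseudocounts (0.5 and 5), filters, voom and quantile normalisation. Further alternatives were covariates (Xist, cortical score, mitochondrial share), a replicate block and each library left out. Only the main limma fit of the interaction was tested on simulated counts, which held no GC or mitochondrial trend. Linear additivity is the mixture mean over the sum of the single-exposure means minus control. GC trends were removed by lowess (span 0.3) on the transcript GC content of GENCODE M21 (GRCm38), which also gave coordinates; all 15569 symbols matched.

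The genes, gene lists and rules were chosen with earlier results of these data known. The text names up to 12 called genes per direction by smallest p, the list of 13 genes taken for their levels in the single exposures, and from each other list the member of smallest p; others are said to be named after their values were seen. Some genes these rules name are not reported here. The main fit did not treat libraries of the same replicate number as paired. The correlation of deviations between same-numbered libraries had a median of −0.002, beside −0.016 for other-numbered ones. These medians cannot exclude that the numbers mark a shared litter or batch.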

Additional observations from a re-analysis of the deposited data

Results flagged for a closer look

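In groups of 4 libraries, a library was set apart where its gap to the nearest other exceeded the critical value of Dixon's test, over the values of the named genes and 2 library measures, the mitochondrial share and the GC correlation. Of 210 groups tested, 14 were set apart, and chance alone sets apart about 1 in 20.

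In the mixture, library 4 was low for Adora2a (2080 normalised counts, against 2456 to 2506 in the others), library 2 was high for Eml5 (1959 against 1788 to 1816) and for Psmd12 (507.7 against 433.9 to 437.0), and library 3 was low for Rarb (3295 against 3537 to 3572). In TiO2, library 3 was low for Cacna2d3 (1618 against 1998 to 2051), Snhg6 (75.3 against 102.7 to 107.8) and Stxbp5l (290.0 against 317.2 to 322.2), and library 2 was low for Gm43843 (225.7 against 266.9 to 272.9).

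In control, library 1 was high for Cyp26b1 (16.6 against 7.86 to 9.29), Gm43843 (136.7 against 97.3 to 98.9), Kcna3 (30.0 against 8.85 to 10.6) and Klhl11 (78.7 against 31.0 to 37.2). Library 2 was high for Col4a1 (1191 against 919.9 to 946.6) and low for Rragb (918.5 against 942.7 to 946.6). Without control 1 the interaction was −2.86 for Cyp26b1, −1.39 for Gm43843, −3.19 for Kcna3 and −2.82 for Klhl11, each larger in size than with it.

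The interaction is itself a difference between the effect of paraquat with and without TiO2, and 1832 genes had such a difference by the test.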

How the results depend on the processing

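The counts of 1832 calls, 842 higher and 990 lower, came out at 923, 403 and 520 in limma without its trend and robust options, and at 1145, 455 and 690 with the GC trend removed. With the mitochondrial share as a covariate they were 32, 2 and 30, and with the GC trend removed and Xist as a covariate 1200, 480 and 720; these last 2 fits were added after the data were seen. Leaving out 1 library gave 882 to 2313 calls, 333 to 1151 higher and 549 to 1162 lower. The lowest counts came without paraquat 1. The other pseudocounts, filters, edgeR, DESeq2, voom, quantile normalisation, Xist and cortical-score fits gave counts within 1.5 times of 1832, 842 and 990. On a linear scale of additivity the direction was the same in 1823 of the 1823 calls compared.

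A replicate block gave 1768 calls, 794 higher and 974 lower, of which 1631 were among the 1832. Same-numbered libraries correlated at −0.186 to 0.271, with 8 of 21 pairs over 0.1. Other-numbered libraries of different groups correlated at −0.338 to 0.337, with 18 of 63 pairs over 0.1. These correlations cannot show whether the numbers mark a shared litter or batch.

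Of the 59 named genes that were called, 45 lost the call with the mitochondrial share as a covariate, 14 with the GC trend removed, 9 without trend and robust options, 8 without paraquat 1 and 0 under edgeR. Nrn1, not called at −0.14, changed sign with the cortical score as a covariate (0.099), with the mitochondrial share (0.0135) and across libraries left out (−0.63 to 0.55). The cause was not tested, and Nrn1 is itself part of the cortical score, so that fit adjusted it in part for itself. Depth limits the lowest genes, where 3 reads are up to 3.25 normalised counts.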

Other observations

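Other lists were small, and their shares of calls are read against 6.36% lower and 5.41% higher over all genes tested. Of 19 immediate early genes 3 (15.8%) were called lower, Jund, Egr1 and Btg2, with Jund at −0.51 ± 0.15 (adjusted p = 0.0269) and Egr1, an activity-dependent transcription factor, at −0.82 ± 0.24 (adjusted p = 0.0366). The activity marker Fos averaged 57.8 ± 15.2 in the mixture, 50.4 ± 11.8 in paraquat, 46.2 ± 13.7 in TiO2 and 25.8 ± 4.88 in control and did not pass (−0.61 ± 0.33, adjusted p = 0.221). None of the 3 calls was made without paraquat 1, paraquat 3 or control 1, and 0 members were called with the GC trend removed. Of 17 circadian clock genes 3 (17.6%) were called lower, Nr1d1, Per1 and Bhlhe40. The clock repressor Nr1d1 had 948, 1020, 1012 and 829 normalised counts in the mixture, 919, 895 and 1373 in paraquat, 1155, 1125, 1014 and 1144 in TiO2 and 593, 633, 754 and 724 in control, an interaction of −0.85 ± 0.16 (adjusted p = 0.00307); the mixture was above every control library and overlapped both single exposures. Nr1d1 overlaps Thra on the opposite strand and was not called with the GC trend removed. Per1, which also stands in the corticosteroid list of 12 genes, had −0.76 ± 0.17 (adjusted p = 0.00688), and the glucocorticoid receptor Nr3c1 of that list −0.42 ± 0.12 (adjusted p = 0.0268).

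Of 12 DNA methylation genes 3 (25%) were called lower, among them Tet1 and Tet2, which oxidise methylcytosine, at −0.74 ± 0.14 (adjusted p = 0.00321) and −0.42 ± 0.13 (adjusted p = 0.0409). The call of Tet2 was made in 3 of the 15 fits that left out 1 library. Tet1 had 868, 972, 927 and 1015 normalised counts in the mixture, 1044, 943 and 1009 in paraquat, 1220, 1016, 1153 and 1196 in TiO2 and 863, 567, 776 and 728 in control, and its mixture libraries were above all controls. Of 22 imprinted genes Igf2 and Ndn were called lower, with the growth factor Igf2 at −1.62 ± 0.45 (adjusted p = 0.0233). Neither was called without mixture 4, paraquat 3 or control 1, and Igf2 was not called with the GC trend removed. Of 14 genes of immature neurons and progenitors the notch target Hes5 and the tubulin Tubb3 were called lower, at −0.92 ± 0.19 (adjusted p = 0.00413) and −0.38 ± 0.12 (adjusted p = 0.0496), and the intermediate filament gene Nes higher, at 0.59 ± 0.17 (adjusted p = 0.0304) (21.4% in all). The call of Hes5 was made whichever library was left out, that of Nes in 8 of the 15 fits and that of Tubb3 in 5. Neither Hes5 nor Tubb3 was called with the GC trend removed. Of 15 cell division genes Cenpu, a kinetochore subunit, was called higher (6.67%), at 1.38 ± 0.43 (adjusted p = 0.0376). This call was made in 5 of the 15 fits that left out 1 library and not with the GC trend removed.

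Among 12 striatal interneuron genes the transcription factor Lhx6 was called lower, at −0.57 ± 0.16 (adjusted p = 0.0207), and among 12 cortical glutamatergic genes Rasgrf2, at −0.60 ± 0.18 (adjusted p = 0.033). These calls were made in 13 and 8 of the 15 fits that left out 1 library, and Lhx6 was not called with the GC trend removed. The median interaction of the cortical list was −0.12, with median differences from control of 1.41 for the mixture, 0.95 for paraquat and 0.31 for TiO2. Of 7 opioid system genes Oprm1 was called lower and Penk higher, and of 14 retinoic acid genes Cyp26b1 lower and Rarb higher. With the mitochondrial share as a covariate, 0 genes of the lists in this section were called.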
